A study of Mus musculus with 6 samples.

Results

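The genes that encode the proteins of the cytosolic ribosome were followed in E12.5 mouse brain, in 3 knockout embryos and 3 control littermates. Members were taken by name, as every platform symbol of the Rpl or Rps series, with the kinases whose symbols start with Rps6k left out and with Rpsa kept. This gave 66 of 16593 genes on the array, measured by 84 of 25696 probes. Of these genes, 35 encode proteins of the large subunit and 23 proteins of the small subunit. A further 6 were classed as paralogs of such genes, namely Rpl22l1, Rpl36al, Rpl39l, Rpl3l, Rps27l and Rps23rg1. The other 2, Rpl7l1 and Rps19bp1, share a name with the family and were classed as other proteins. The genes Rpl11, Rpl10l, Rpl40, Rps27a and Rps4l were not analysed here.

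Knockout embryos were Nestin Cre+ with the alleles Rest GTi/GTi and p53 fl/fl, on the C57/BL6 strain, and controls had Rest GTi/GTi and p53 fl/fl without Cre. The GTi allele is a gene trap that Cre turns into the disrupting orientation, so both groups carried the trap and the floxed p53 alleles, and they differed in the Cre. The Nestin promoter drives Cre in neural progenitors, so by design these cells and their progeny lose REST and p53, while cells of other lineages in the same tissue keep both. Total RNA of each brain was hybridised to an Illumina mouse reference BeadChip, 1 array per sample, and the labels number the samples of a group as biological replicates. They do not give the litter or the slide, so the p-values below weigh a difference against the spread between these samples. That spread is drawn, probe by probe, toward a value shared over all probes tested.

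A ribosome is built from a large and a small subunit, each an RNA scaffold covered by proteins present in 1 copy each, except for the acidic stalk proteins. Growing embryonic cells make very large amounts of these mRNAs. Their translation is tied to nutrient signalling through the kinase mTOR and the RNA-binding protein LARP1. The mRNAs are recognised by a cytosine at the first base followed by a run of pyrimidines, called a terminal oligopyrimidine tract. When ribosome assembly fails, free large subunit proteins such as RPL5 bind MDM2, the ligase that degrades p53, and p53 accumulates. In human, loss of 1 copy of several of these genes causes Diamond-Blackfan anaemia.

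The start sites of some members are shown because this tract is the sequence the family is known by. Each line holds 30 bases of the RefSeq promoter table (build GRCm38.p6), 12 before the first base of the transcript and 18 from that base on. Capitals mark a run of at least 5 pyrimidines that begins with C at the start base or within 5 bases of it.
Rps6, chr4:86857350-86857379, minus strand: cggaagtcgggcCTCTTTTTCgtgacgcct
Rpl35, chr2:39005114-39005143, minus strand: ccccgccctttcCTCTTTCTCTCgaaccag
Rpl38, chr11:114668568-114668597, plus strand: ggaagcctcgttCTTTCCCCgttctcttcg
Rps27, chr3:90213631-90213660, minus strand: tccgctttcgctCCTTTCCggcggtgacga
Rps27l, chr9:66946074-66946103, plus strand: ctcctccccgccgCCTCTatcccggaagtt
Rpsa, chr9:120127754-120127783, plus strand: ggttatttaaggacgtcatttccggccgcc
Rps19, chr7:24884580-24884609, plus strand: gaaatctcgcgagactcgacgcccgacttg
Rpl3l, chr17:24727814-24727843, plus strand: tgttctagctctgtcatttgacctctggtg
The first 4 have the tract at the annotated start base. In Rps27l it begins 1 base later, and in the last 3 none begins within 5 bases of the start base.

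Of the 66 members, 57 matched a promoter, and the first start listed was used for each. A tract at the start base was found in 10 of these 57 (17.5%), against 380 of 17491 protein-coding genes (2.17%). With the run allowed to begin within 5 bases on either side, the shares were 45.6% of members and 18.7% of all. Over the whole window, 250 bases before the start and 50 after it, CCGGAAG, a motif of the ETS family, was present on either strand in 36.8% of members and 11.9% of all promoters. AAGATGG, the core of the YY1 motif, was in 15.8% and 6.37%. The E-box CACGTG was in 8.77% and 7.90%, and TATAAA was in 8.77% and 13.3%. CCGGAAG ends in the AAG that AAGATGG begins with, so that a match of one can run into the other. A match says only that the letters are there.

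Values below are log2 intensities after background correction, and differences are knockout minus control on that log2 scale. An array was counted as detecting a probe at a detection p under 0.05. A probe was tested when at least 3 of the 6 arrays detected it, which held for 73 of the 84 member probes and 59 of the 66 genes. The brightest tested probe stood for a gene, and p-values were adjusted over all 13755 probes tested. Between 52.2% and 54.1% of probes were detected on each array. The 1 probe for Rest was detected on 0 arrays, at 5.30, 5.65 and 5.33 in the knockout and 5.17, 5.26 and 5.21 in the control brains, and so did not check the labels. Trp53 was not analysed here. Of 9 embryonic brain markers 7 were tested, with a median difference of 0.11. On the first principal component knockout replicate 2 lay far from the rest, at 40.7 against -14.8 to -0.84 for the other 5 arrays. It also had the lowest summed level of the choroid plexus markers, 8.60 against 13.13 and 13.32 in the other knockout brains and 13.37, 13.74 and 14.15 in the controls. Of the 3 tested choroid plexus markers, Ttr and Clic6 were lowest on that array. Folr1 was not, at 6.33, 6.60 and 6.98 in the knockout brains and 6.58, 6.59 and 6.92 in the controls. The summed mesenchyme and meninges markers were 12.52, 9.84 and 13.01 in the knockout brains and 12.69, 13.35 and 13.27 in the controls. In both lists the order of the values is that of replicates 1, 2 and 3, as it is wherever 3 values of a group are given. In bulk tissue, fewer cells of a type and less RNA per cell cannot be told apart.

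Ribosomal protein genes differed little between knockout and control brains, and in no common direction. The median difference over the 59 tested members was -0.005, the same as that over all 9408 genes. Limma's moderated test called 0 of the 59 at an adjusted p under 0.05, where it called 0% of all genes, and the smallest adjusted p of any member was 0.999. At an unadjusted p under 0.05 there was 1 member, Rpsa, or 1.69% of the list, against 4.17% of all genes. Higher values in knockout brains were found for 29 members and lower values for 30, where 48.7% of all genes were higher. No member differed by more than 1.5-fold, against 3.2% of all genes. For 25 members the mean lay too near the array maximum to leave room for a 1.5-fold rise. The groups did not overlap for 3 members (5.08%), namely Rpsa, Rps25 and Rpl37, against 9.07% of all genes. At the unadjusted threshold, higher calls were 1 of 59 members against 1.72% of all genes.

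**Figure D1:**
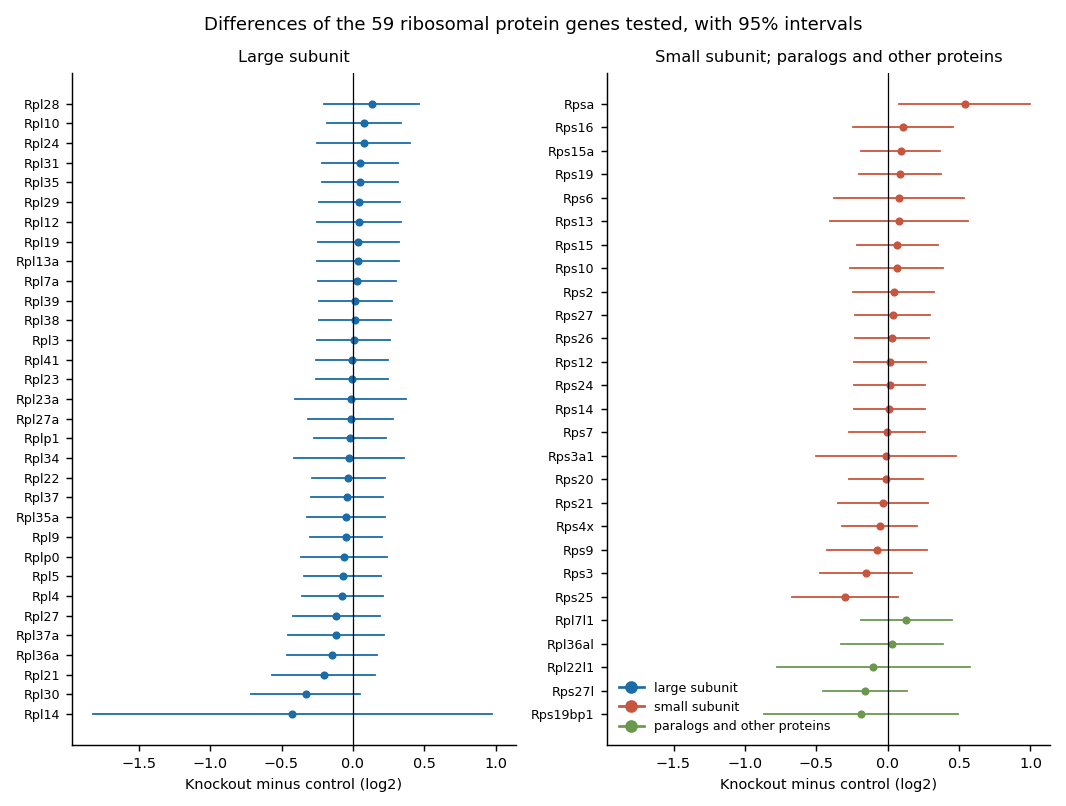
Difference of each of the 59 tested ribosomal protein genes, knockout minus control on the log2 scale, with its 95% interval from limma. Large subunit proteins are on the left, and small subunit proteins, paralogs and other proteins are on the right. All intervals but that of Rpsa (0.08 to 1.00) cross 0, and that of Rpl14 is the widest.

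The differences were small as well as balanced. The median difference without its sign was 0.05 for members and 0.11 for all genes, and 44 of the 59 members (74.6%) lay within 0.1 of 0, against 45.5% of all genes. The 95% interval reached a median of 0.29 to either side of the estimate over the members. Much of this width in bright members comes from the spread shared over all probes tested. Rps24 had an SD within groups of 0.009 but an SE of 0.105. The SD within groups had a median of 0.10 for members and 0.20 for all genes. Members were also bright, and bright probes varied less between arrays. Among genes with a mean above log2 15, the median SD was 0.06 for 33 members and 0.09 for 95 other genes, and 84.8% of these members and 80% of these other genes lay within 0.1.

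Subunit proteins of either kind were spread on both sides of 0. In the large subunit 13 genes were higher and 19 lower, with a median of -0.02 and a range of -0.42 to 0.13. In the small subunit 14 were higher and 8 lower, with a median of 0.02 and a range of -0.30 to 0.54. The 5 tested paralogs and other proteins had a median of -0.10. Members with a pyrimidine tract at the start base had a median of 0.05 over the 9 tested, and the 42 other matched and tested members a median of -0.01.

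Many of these probes were near the top of the scale, which limits what a rise could look like. Quantile normalization gave all arrays the same maximum, 16.13, and the probe at rank 100 stood 0.76 below it. Member probes made up 27% of the 100 brightest by mean level. For 25 member genes the mean lay less than 0.585 below the maximum, the room that a 1.5-fold rise needs. For 9 of them the room was under 0.1. These were Rpl23 (0.019), Rpl41 (0.032), Rplp1 (0.041), Rps24 (0.042), Rps12 (0.052), Rps20 (0.058), Rpl38 (0.071), Rps14 (0.082) and Rpl37 (0.086). A rise beyond that room in these genes was not detectable on these arrays. Whether a signal so near the maximum could also hide a fall was not tested.

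**Figure D2:**
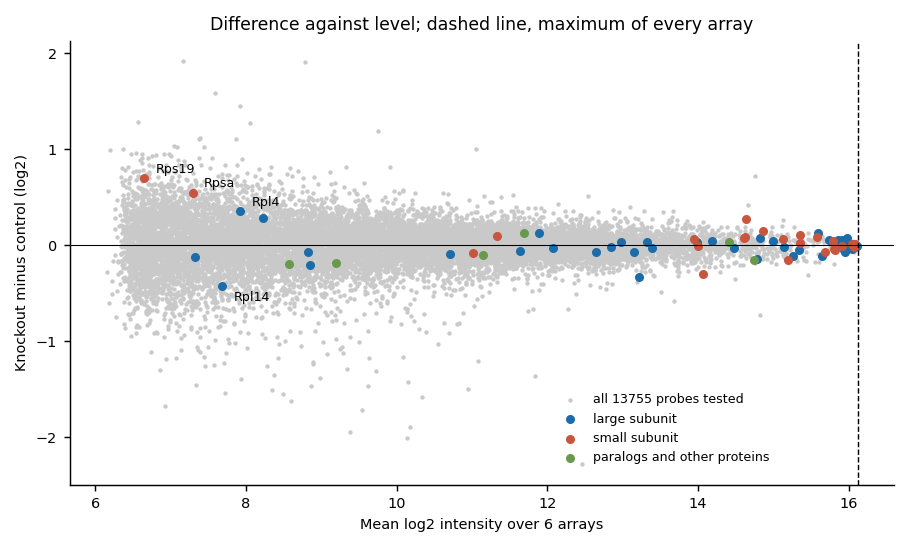
Difference, knockout minus control on the log2 scale, against mean log2 intensity for all 13755 probes tested (grey) and the 73 member probes (coloured by class). Most members sit on the right, close to the dashed line at the array maximum of 16.13, where the spread of all probes is narrow. The named members are the dim probes of Rps19, Rpsa and Rpl4, which lie above 0, and Rpl14, which lies below it.

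Rpsa, which encodes a small subunit protein also known as the laminin receptor, was the member with the smallest p. Its tested probe was at 7.70, 7.55 and 7.43 in knockout brains and at 7.17, 6.63 and 7.26 in control brains. All 3 knockout brains were above all 3 controls. The difference was 0.54 (SE 0.19, 95% interval 0.08 to 1.00), with an unadjusted p of 0.027 and an adjusted p of 0.999 in limma. This probe was dim, with deposited intensities of 455, 435 and 419 in knockout and 392, 344 and 401 in control brains, so the background correction decides its size. On the log2 of the deposited values the difference was 0.21 with an unadjusted p of 0.077. Without knockout replicate 1, knockout replicate 2 or control replicate 2 the unadjusted p in limma was 0.083, 0.056 and 0.070, at differences of 0.47, 0.54 and 0.34. A second probe for Rpsa was detected on 0 arrays. The mean level of the tested probe was 7.29, the lowest of the 59 tested members, whose median was 15.2. How well this probe reports the Rpsa transcript was not tested.

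Rps19, the small subunit gene most often mutated in human Diamond-Blackfan anaemia, had a bright and a dim probe. The bright probe, which represents the gene, was at 15.63, 15.54 and 15.70 in knockout brains and at 15.65, 15.55 and 15.41 in control brains. These values overlap, and the difference was 0.09 (95% interval -0.20 to 0.38). The dim probe was at 6.92, 6.95 and 7.11 in knockout brains, all detected, and at 6.50, 6.61 and 5.78 in control brains, of which 1 was detected. There the groups did not overlap, and the difference was 0.70. This probe passed the detection filter only through the knockout arrays, so the filter itself favours a higher value there and its p-value is not given. The difference was 0.25 on the log2 of the deposited values, and this was the 1 member probe past 1.5-fold, against 3.28% of all probes.

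Rpl4, a large subunit protein that lines the exit tunnel, showed the same split between probes. Its bright probe was at 12.52, 12.56 and 12.75 in knockout brains and at 12.62, 12.74 and 12.69 in control brains, a difference of -0.07. Its dim probe was at 7.95, 8.21 and 8.13 in knockout brains and at 7.77, 7.60 and 7.85 in control brains. There all 3 knockout brains were above the controls, by 0.35 (SE 0.13, unadjusted p = 0.032, adjusted p = 0.999 in limma), and the difference was 0.18 on the log2 of the deposited values. Counting probes rather than genes, 3 of 73 (4.11%) met the unadjusted threshold, against 4.59% of all probes. All 3 were higher in knockout brains, where 2.25% of all probes were higher and 2.34% lower at that threshold. They were the dim probes of Rpsa, Rps19 and Rpl4. That of Rps19 was tested only through the knockout arrays, so the filter favours its count as higher. Over all member probes 36 of 73 (49.3%) were higher, against 51.3% of all probes, and the groups did not overlap for 6 (8.22%), against 9.3%. The dim Rps19 probe is in both of these counts too.

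Disagreement between probes was common among members. Of 12 genes with several tested probes, 9 had probes of opposite sign, and the median gap between the highest and lowest difference of a gene was 0.20. Rps3, a small subunit protein at the mRNA entry site, had probes with similar levels but opposite differences. The brighter was at 15.12, 15.06 and 15.18 in knockout brains and at 15.34, 15.42 and 15.06 in control brains, a difference of -0.15. The other was at 15.02, 14.66 and 14.63 in knockout brains and at 14.46, 14.47 and 14.57 in control brains. It was higher in all 3 knockout brains, by 0.27 with a 95% interval of -0.07 to 0.61. The 4 probes of Rpl23 ranged from -0.12 to 0.06, and the 2 of Rpl27a were at -0.02 and 0.28. Which transcripts a probe of these genes also binds, such as those of processed pseudogenes, was not tested.

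**Figure D3:**
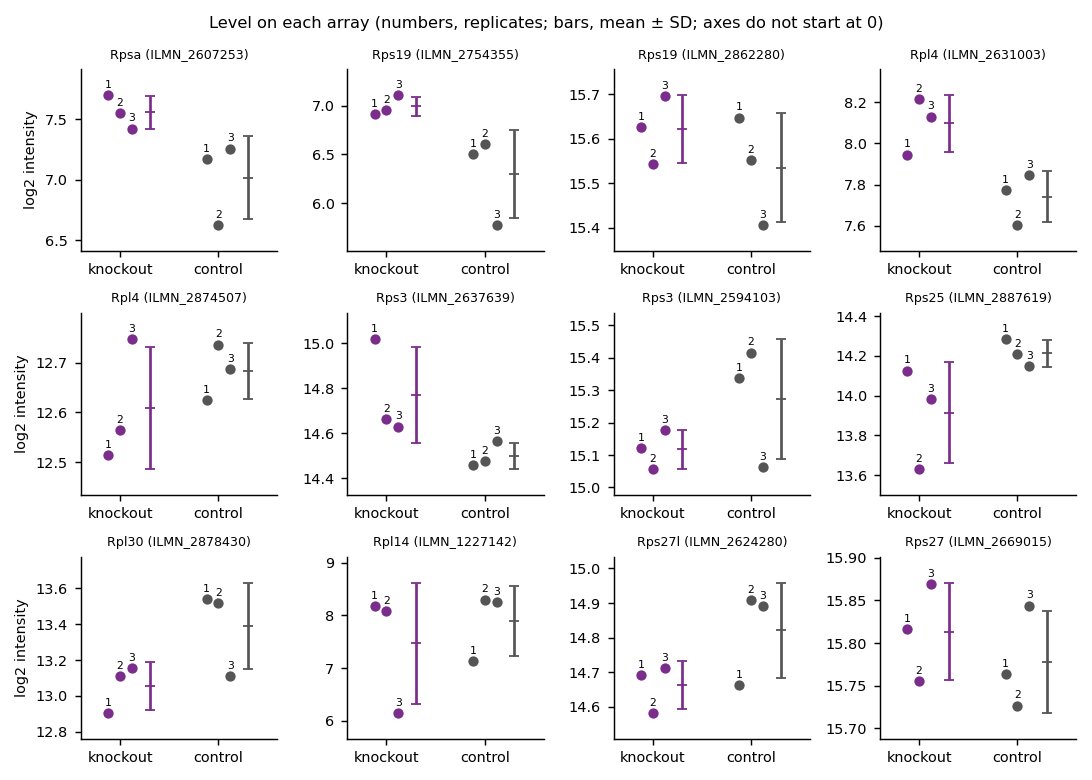
Log2 intensity on each array for 12 member probes, with the replicate number beside each point and bars for the mean ± SD (n = 3). Knockout brains are left of control brains, and each panel has its own axis. The groups do not overlap for Rpsa, the dim probes of Rps19 and Rpl4, one Rps3 probe and Rps25.

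On the lower side no member met the unadjusted threshold, against 2.44% of all genes. The next 3 genes were singled out after their values were seen. Rpl30, a large subunit protein, was at 12.91, 13.11 and 13.15 in knockout brains and at 13.54, 13.52 and 13.11 in control brains. Control replicate 3 overlapped the knockout brains, and the difference was -0.33 (95% interval -0.71 to 0.05, unadjusted p = 0.077 in limma's fit across all probes). Rps25, a small subunit protein that viral internal ribosome entry depends on, was at 14.13, 13.63 and 13.98 in knockout brains and at 14.28, 14.21 and 14.15 in control brains. All 3 knockout brains were lower than the controls, and the difference was -0.30 (95% interval -0.67 to 0.07, unadjusted p = 0.097 in the same fit). Rpl37, at 15.98, 16.04 and 16.04 in knockout brains and 16.05, 16.06 and 16.07 in control brains, had no overlap between groups, but the difference was only -0.04 (95% interval -0.29 to 0.21).

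The genes tied to p53 by ribosome assembly did not pass the test. Rpl5 was at 15.99, 15.94 and 15.80 in knockout brains and at 15.96, 15.99 and 15.99 in control brains, a difference of -0.07 (95% interval -0.34 to 0.20). Rps27l, a paralog of Rps27 that is a p53 target gene, was at 14.69, 14.58 and 14.71 in knockout brains and at 14.66, 14.91 and 14.89 in control brains. Knockout replicates 1 and 3 lay just above control replicate 1, and the difference was -0.16 (95% interval -0.45 to 0.14). Rps27 itself was at 15.82, 15.76 and 15.87 in knockout brains and at 15.76, 15.73 and 15.84 in control brains, a difference of 0.04 (95% interval -0.23 to 0.30). Mdm2, which both degrades p53 and is induced by it, was at 12.53, 12.70 and 12.51 in knockout brains and at 12.81, 12.68 and 12.81 in control brains, a difference of -0.19 (95% interval -0.47 to 0.10).

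Signalling to the ribosome is often read from Rps6, the small subunit protein that S6 kinases phosphorylate. Its mRNA was at 14.47, 14.48 and 15.05 in knockout brains and at 14.74, 14.55 and 14.47 in control brains. Knockout replicate 3 was the highest of the 6 arrays and the others overlapped, for a difference of 0.08 (95% interval -0.37 to 0.53). Of the stalk proteins that recruit translation factors, Rplp0 differed by -0.06 and Rplp1 by -0.02, and Rplp2 was detected on 0 arrays. Of the members whose human counterparts are tied to Diamond-Blackfan anaemia, Rps7, Rps10, Rps19, Rps24, Rps26, Rpl5 and Rpl35a lay between -0.07 and 0.09, and Rpl27, also tied to it, was at -0.12. The 4 X-linked members, Rpl10, Rpl36a, Rpl39 and Rps4x, lay between -0.15 and 0.08.

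Among the paralogs, Rpl36al differed by 0.03 and its X-linked relative Rpl36a by -0.15. Rpl22l1, whose product can replace RPL22 in the large subunit, was at 11.65, 10.46 and 11.17 in knockout brains and at 11.17, 11.13 and 11.29 in control brains. Knockout replicate 2 was lowest and replicate 1 highest, so that the difference of -0.10 had a 95% interval of -0.78 to 0.58. Without knockout replicate 2 it was 0.22. Rpl22 differed by -0.03. The muscle paralog Rpl3l and the testis paralog Rpl39l were detected on 0 arrays, as were Rpl6, Rpl17 and Rps23, which every cell uses, so absence from detection here says nothing of the level of those 3. Rps23rg1 was detected on 1 knockout and 1 control array.

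The steadiest members were Rps24, Rpl41 and Rps14, all within 0.1 of the array maximum. Rpl41, the smallest ribosomal protein, was at 16.11, 16.09 and 16.08 in knockout brains and at 16.10, 16.10 and 16.09 in control brains. Rpl14 varied most. It was at 8.18, 8.08 and 6.15 in knockout brains and at 7.13, 8.30 and 8.25 in control brains, and it was not detected in knockout replicate 3. Its difference of -0.42 (SE 0.59) turned to 0.24 without that replicate. Rps19bp1, a nucleolar protein that binds RPS19, was at 9.51, 9.19 and 8.62 in knockout brains and at 9.33, 9.67 and 8.87 in control brains, and its difference of -0.19 turned to 0.06 without knockout replicate 3 and was 0.004 without control replicate 2.

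Members did not shift the same way on the 3 knockout arrays. Measured from the mean of the controls, the median member was at 0.01, -0.04 and 0.06 in knockout replicates 1, 2 and 3, and at 0.01, 0.01 and -0.01 in the control brains. Members lay above that mean in 36, 16 and 40 of 59 cases in the knockout brains and in 38, 37 and 22 in the control brains. Knockout replicate 3 was the highest array for 26 members (44.1%), against 19.8% of all genes. Knockout replicate 2 was the highest for 1 member (1.69%), against 21.4% of all genes, and the lowest for 19 (32.2%), against 25.0%. The order of the knockout arrays was the same with deposited values, with normexp and with median centring, with medians of -0.04 to -0.05 for replicate 2 and 0.05 to 0.06 for replicate 3. All of these start from deposited values that were taken as already normalized, so they cannot show whether the order depends on that step. Knockout replicate 2 is also the array with the low summed choroid plexus and mesenchyme markers, and the part of these cells in its member levels was not tested. The summed markers of choroid plexus, mesenchyme and meninges, erythroid cells, endothelium and microglia all had the same order of knockout arrays as the members. So did the summed ribosome biogenesis genes, at 18.13, 18.07 and 18.22 in the knockout brains and 18.14, 18.16 and 18.17 in the controls. Among single markers of these cell types Folr1, Hbb-y, Hba-x, Hba-a1, Cdh5, C1qb, Fcrls and Cx3cr1 had another order. The other tested markers of these types had that of the sums. The erythroid markers summed to 17.76, 17.38 and 17.78 in the knockout brains, against 17.71, 17.71 and 17.61 in the controls. For the microglia markers the sums were 9.72, 9.66 and 10.19, against 9.44, 9.46 and 9.68. The endothelial markers summed to 10.06, 9.71 and 10.56 in the knockout brains and to 10.41, 10.50 and 10.77 in the controls, and the part of these lists was not tested either. The brain markers of knockout replicate 2 summed to 16.54, against 16.22 and 16.15 in the other knockout brains and 16.16, 16.24 and 16.16 in the controls.

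**Figure D4:**
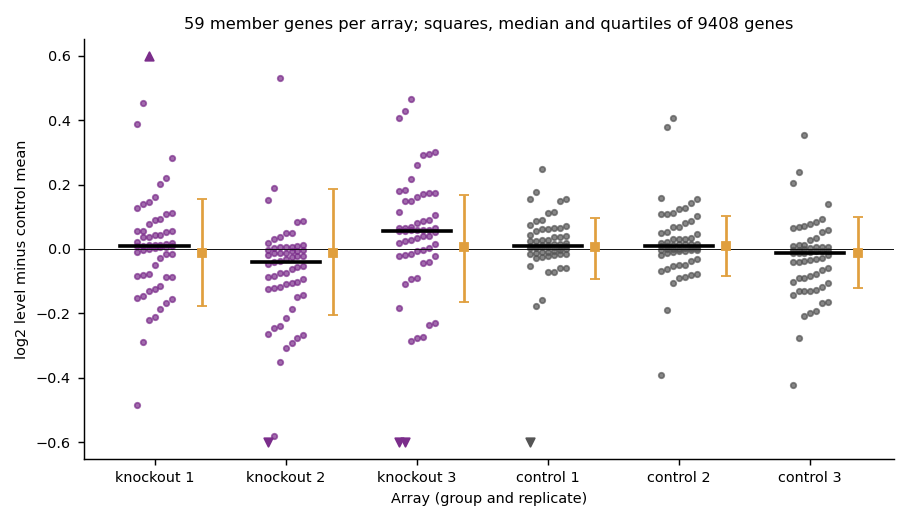
Log2 level of each of the 59 tested members on each array, minus the mean of the 3 control arrays, with black bars for the median of members and squares with bars for the median and quartiles of all 9408 genes. Triangles at the edge stand for 5 values beyond 0.6 in size. The members sit slightly below 0 in knockout replicate 2 (median -0.04) and slightly above it in knockout replicate 3 (median 0.06).

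Genes that work with the ribosome were also spread on both sides of 0. Fau, which encodes a small subunit protein under another name, was at 14.42, 14.22 and 14.47 in knockout brains and at 14.28, 14.45 and 14.03 in control brains, a difference of 0.12 (95% interval -0.24 to 0.48). Of 64 tested ribosome biogenesis genes, 36 were higher and 28 lower, with a median of 0.04. At the unadjusted threshold there was 1 of the 64, against 4.17% of all genes, and the groups did not overlap for 8, against 9.07%. The 1 gene was Rrs1, an assembly factor of the large subunit that brings RPL5 into the particle. It was at 8.64, 8.33 and 8.91 in knockout brains and at 7.95, 7.96 and 8.06 in control brains, higher in all 3, by 0.64 (SE 0.17), with an adjusted p of 0.959 in limma. Fbl, the methyltransferase of ribosomal RNA, differed by 0.09, Ncl by -0.12 and Npm1 by -0.18, the last 2 being abundant nucleolar proteins.

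Of 31 tested translation factors, 17 were higher and 14 lower, with a median of 0.01. At the unadjusted threshold there were 2 of the 31, against 4.17% of all genes, and the groups did not overlap for 4, against 9.07%. Eif3h, a subunit of an initiation factor, was at 9.86, 9.55 and 9.07 in knockout brains and at 8.71, 8.63 and 8.84 in control brains, a difference of 0.76 (SE 0.21, adjusted p = 0.980 in limma). Eif5a, which helps ribosomes past stalling residues, was at 13.87, 13.78 and 13.86 in knockout brains and at 13.40, 13.53 and 13.53 in control brains, a difference of 0.35 (SE 0.11, adjusted p = 0.999 in limma). All 3 knockout brains were above the controls for both. Of 11 tested controllers of ribosomal protein mRNAs, 3 were higher and 8 lower, with a median of -0.01, and none met the unadjusted threshold, where 4.17% of all genes did. Mtor differed by 0.06 (95% interval -0.27 to 0.39), and Tsc1, which restrains it, by -0.20 (95% interval -0.59 to 0.19).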

How the data were processed

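Total RNA of 3 knockout and 3 control brains was read on Illumina BeadChips with BeadStudio, and the authors normalized the values with the quantile method of lumi. The version of lumi, and whether background was subtracted, is not given in the sources used here. Deposited were a linear intensity and a detection p-value for each probe on each array. Once sorted, intensities differed between arrays by no more than 1.61%, and were taken as already normalized.

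There were 2 empty ID cells, which displace the IDs of 84.8% of lines. Without them, IDs were matched to values line by line. The correlation between adjacent probes of 1 gene was then highest, at 0.482 over 6232 pairs after the empty cells, against 0.250 as deposited. Under this pairing 71 of the 84 member probes were detected on all 6 arrays, against 61 as deposited.

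Intensities were corrected, normalized and turned to log2 with neqc (offset 16, negative controls inferred from the detection p-values) and compared with lmFit and eBayes in limma 3.58.1 (R 4.3.3, statmod 1.5.0), two-sided, without covariates. p-values were adjusted by the Benjamini-Hochberg method over all probes tested. The fit was tested on data simulated with the spread of these probes. Of 100 probes with an added log2 difference of 1, 56 were called at an adjusted p under 0.05. Of 100 with 2 added, 91 were called, as were 9 unchanged probes. The changed probes were drawn from all probes tested, and the simulation set no array maximum. These counts therefore do not apply to members near that maximum. The number of arrays limits the precision. Symbols are those of the platform annotation.

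Members, lists and alternatives were chosen with earlier results of these data known. Genes were named when they had the smallest unadjusted p-values, a known role, the smallest or largest SD, or probes of opposite sign with 1 past the unadjusted threshold. Rpl30, Rps25, Rpl37 and Rps3, and the genes counted in lists, were named after their values were seen. Alternatives changed the background correction, scaling, filter, moderation, test, replicate block, pairing of IDs and probes per gene, and left out each sample in turn.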

Additional observations from a re-analysis of the deposited data

Results flagged for a closer look

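A second probe for Rplp0, the large subunit stalk protein, was not tested because 1 of the 6 arrays detected it. It was at 7.68 on knockout replicate 2, against 5.61 and 5.65 on the other knockout arrays and 5.63, 5.40 and 5.58 on the control arrays, where it was not detected. This signal in a probe outside the comparison came up on the array that also stood apart on the first principal component. The tested probe for Rplp0 was at 11.48, 11.56 and 11.77 in knockout brains and at 11.74, 11.64 and 11.60 in control brains.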

How the results depend on the processing

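No alternative called a member at an adjusted p under 0.05, and the lowest and highest counts without 1 replicate were both 0. The smallest adjusted p of a member was 0.70, without knockout replicate 3. At the unadjusted threshold the count of 1 became 2 with the trend and robust options (Rpl30 and Rps25, both lower, in place of Rpsa), 0 with the methods' t-test and 3 with IDs as deposited (52 genes). It ran from 0 (without knockout replicate 2 or control replicate 2) to 2 (without control replicate 3) when 1 replicate was left out, and on the log2 of the deposited values the 1 gene was Rpl30. The median member difference lay between -0.014 and 0.027 without 1 replicate. So recomputed, the median of ribosome biogenesis genes lay between -0.0036 (without knockout replicate 3) and 0.058, and that of the controllers between -0.058 and -0.0045. With IDs as deposited the controllers were at 0.067. The cause of these shifts was not tested.

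Of 376 recomputed differences of 27 named probes, 12 turned sign, all without 1 replicate. The ranges there were -0.80 to 0.24 for Rpl14, -0.38 to 0.22 for Rpl22l1, -0.40 to 0.059 for Rps19bp1, -0.11 to 0.18 for Rps6 and -0.10 to 0.11 for Rpl36al. They were -0.015 to 0.026 for Rpl3, -0.0054 to 0.048 for Rpl39, -0.0081 to 0.054 for Rps26 and -0.092 to 0.0072 for Rpl35a. The unadjusted threshold was missed in 17 others, all of dim probes of Rpsa, Rps19 or Rpl4. Of these, 4 came with another background correction, 5 with another moderation, test or block and 8 with a replicate left out.

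Arrays of the same replicate number had no positive correlation, at -0.01, -0.08 and -0.15 after centring within each group. With so few arrays these values cannot exclude a shared litter or slide. With the replicate block the counts stayed at 0 and 1 and the median at -0.005. With either other detection filter or median centring the counts stayed at 0 and 1 too, and the median lay between -0.0053 and -0.00032. Over the 73 tested member probes the median was -0.0052, and 3 met the unadjusted threshold, among them the dim Rps19 probe that was tested only through the knockout arrays. The room below the array maximum limits any rise of the brightest members.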
